A study of Mus musculus with 18 samples.

Results

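Rad1 encodes 1 of the subunits of the ring-shaped checkpoint clamp that Rad9, Hus1 and Rad1 form at damaged or stalled DNA. The transcripts of this clamp, of its loader and of the ATR kinase pathway that it switches on were followed here in mouse fibroblasts whose link between nucleus and cytoskeleton had been disrupted. The 10 genes were chosen by symbol from the 22019 genes of the deposited expression table: the clamp subunits Rad1, Rad9a, Rad9b and Hus1, the loader subunit Rad17, the kinase Atr with its partner Atrip and its activator Topbp1, and the effector Chek1 with its adaptor Clspn. All 10 were above the lowest value of the table in enough libraries to be tested. Rad1 was put at the head of the group because its value was high in every library of the disrupted cells, so its difference between disrupted and control cells is given as a description without a test. The other 9 genes, called its partners below, were chosen for their function, and the question asked of them was whether they followed Rad1.

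The cells were NIH 3T3 Tet-ON fibroblasts, an established mouse line, that carried a doxycycline-inducible retroviral construct and were selected with puromycin. SUN1L cells expressed SS-HA-Sun1L-KDEL, the lumenal domain of Sun1 kept in the endoplasmic reticulum, which acts as a dominant negative on the LINC complex that couples the nuclear envelope to the cytoskeleton. KDEL cells expressed SS-GFP-KDEL as the control and had also been enriched by fluorescence sorting, a step not described for the SUN1L cells, and each construct was represented by 1 stable line whose clonality is not stated. Both were induced with 1 µg/ml doxycycline for 48 hr on fibronectin-coated polyacrylamide gels of 1 kPa (soft) or 308 kPa (stiff), with 3 libraries in each of these 4 groups. Further KDEL cells on 308 kPa received 25 µM Y27632 (Y27, 3 libraries) or 10 µM blebbistatin (an inhibitor of non-muscle myosin II, 2 libraries) for 48 hr. All cells, controls included, were thus transduced, selected and exposed to doxycycline, and a consequence of either construct's insertion in its line and of the protein it makes cannot be told apart.

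The clamp slides onto DNA where a single-stranded stretch coated with replication protein A meets a double-stranded end, and Rad17, together with the small subunits of replication factor C, opens and closes the ring there. The tail of Rad9 then binds Topbp1, which activates the ATR kinase that Atrip has brought to the same stretch. ATR phosphorylates the kinase Chk1, the product of Chek1, with the help of claspin, and Chk1 holds back origin firing and entry into mitosis. In dividing cells several of these genes, among them Chek1 and Clspn, are transcribed mainly around S phase under E2F factors, and Rad9b is a paralog of Rad9a best known from testis.

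The libraries held between 12670000 and 19460000 read pairs by the step of their low values, and values are given as normalized signal, a linear scale that is not divided by transcript length. Libraries 3 (SUN1L on 1 kPa), 7 (SUN1L on 308 kPa) and 8 (KDEL on 308 kPa) stood apart from the rest. Over the 20 genes of a list of G2/M genes, their mean log2(signal + 1) was between 8.53 and 9.12, against 11.43 to 12.21 in the other 15 libraries. A list of 22 S phase genes lay at 9.29 to 9.59 in these 3 and at 11.23 to 11.82 in the others, whereas 20 targets of p53 lay at 10.70 to 10.73 and at 9.82 to 10.40. The mean of the fibroblast list lay between 12.80 and 13.68 in every library, and that of the 9 markers of other cell types that the table holds between 3.03 and 4.13. These means hide single genes. Of the 10 fibroblast markers 9 or 10 were above the lowest value in a library, and of the 9 others 4 to 6 were. Among these others Krt14 and Cdh1 had a mean signal above 100. In these bulk libraries fewer cells in a phase of the cycle and less RNA of its genes per cell cannot be told apart. Sun1, whose reads include those of the construct, was 38452 to 82617 in the 6 SUN1L libraries and 2785 to 3496 in the 6 KDEL libraries without an inhibitor, as the labels require.

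Rad1 (ENSMUSG00000022248) lies on the plus strand of chromosome 15, at 10486018 to 10499063 in the coordinates of the table, which match build GRCm38. Its promoter is shown because a second gene begins on its other side. Brix1, which encodes a ribosome biogenesis factor, is transcribed in the opposite direction, and 70 bases separate both genes. The RefSeq window of 300 bases around the start of Rad1 (GRCm38.p6, chr15:10485768-10486067, plus strand) is given 5′ to 3′, with the 70 bases between both annotated genes in capitals.
Rad1: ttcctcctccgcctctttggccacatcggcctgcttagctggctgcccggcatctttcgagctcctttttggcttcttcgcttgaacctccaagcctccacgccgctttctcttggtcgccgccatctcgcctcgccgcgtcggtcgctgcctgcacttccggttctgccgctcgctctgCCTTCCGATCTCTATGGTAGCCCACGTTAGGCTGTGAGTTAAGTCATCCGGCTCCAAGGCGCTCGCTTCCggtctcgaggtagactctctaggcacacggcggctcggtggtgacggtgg
The lower-case bases before the capitals thus belong to Brix1 and those after them to Rad1.

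On the soft gel Rad1 was 458, 421 and 554 in the KDEL libraries 4, 16 and 28, and 4843, 2334 and 3185 in the SUN1L libraries 3, 15 and 27. On the stiff gel it was 387, 446 and 590 in the KDEL libraries 8, 20 and 32, and 5011, 2202 and 3528 in the SUN1L libraries 7, 19 and 31. All 6 SUN1L libraries lay above all 6 KDEL libraries, and the lowest SUN1L value was 2202 against a highest KDEL value of 590. The log2 difference was 2.80 (SE 0.32) on 1 kPa and 2.86 (SE 0.32) on 308 kPa, or 2.83 (SE 0.23) over both, which is a ratio of 7.09. Of the 16021 genes tested, 71 (0.443%) had every SUN1L library above every KDEL library, so this pattern was uncommon but not particular to Rad1.

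The size of the Rad1 difference varied between libraries, while its direction was given by the choice of Rad1. When each SUN1L library was set against the KDEL library of the same rigidity and the same run of library numbers (3 to 12, 15 to 24 or 27 to 36), the ratio ranged from 4.94 to 12.9 in the 6 pairs. Rad1 was highest in libraries 3 and 7, which also had low levels of G2/M genes, while the KDEL library 8, with similarly low levels, had a Rad1 value of 387, the lowest of the 6 KDEL libraries without an inhibitor. Without libraries 3, 7 and 8 the log2 difference over both rigidities was 2.48 (SE 0.19), a ratio of 5.58. On both gels Rad1 was highest in the SUN1L library of the first run and lowest in that of the second. Sun1 was also highest in the first run on both gels, but lowest in the third. It was 82617, 63551 and 48167 in libraries 3, 15 and 27 and 73357, 54072 and 38452 in libraries 7, 19 and 31. In KDEL cells Rad1 was likewise higher in the third run, at 554 and 590, than in the second, at 421 and 446. The Rad1 ratios of SUN1L to KDEL were 5.55 and 4.94 in the second run and 5.75 and 5.98 in the third.

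**Figure D1:**
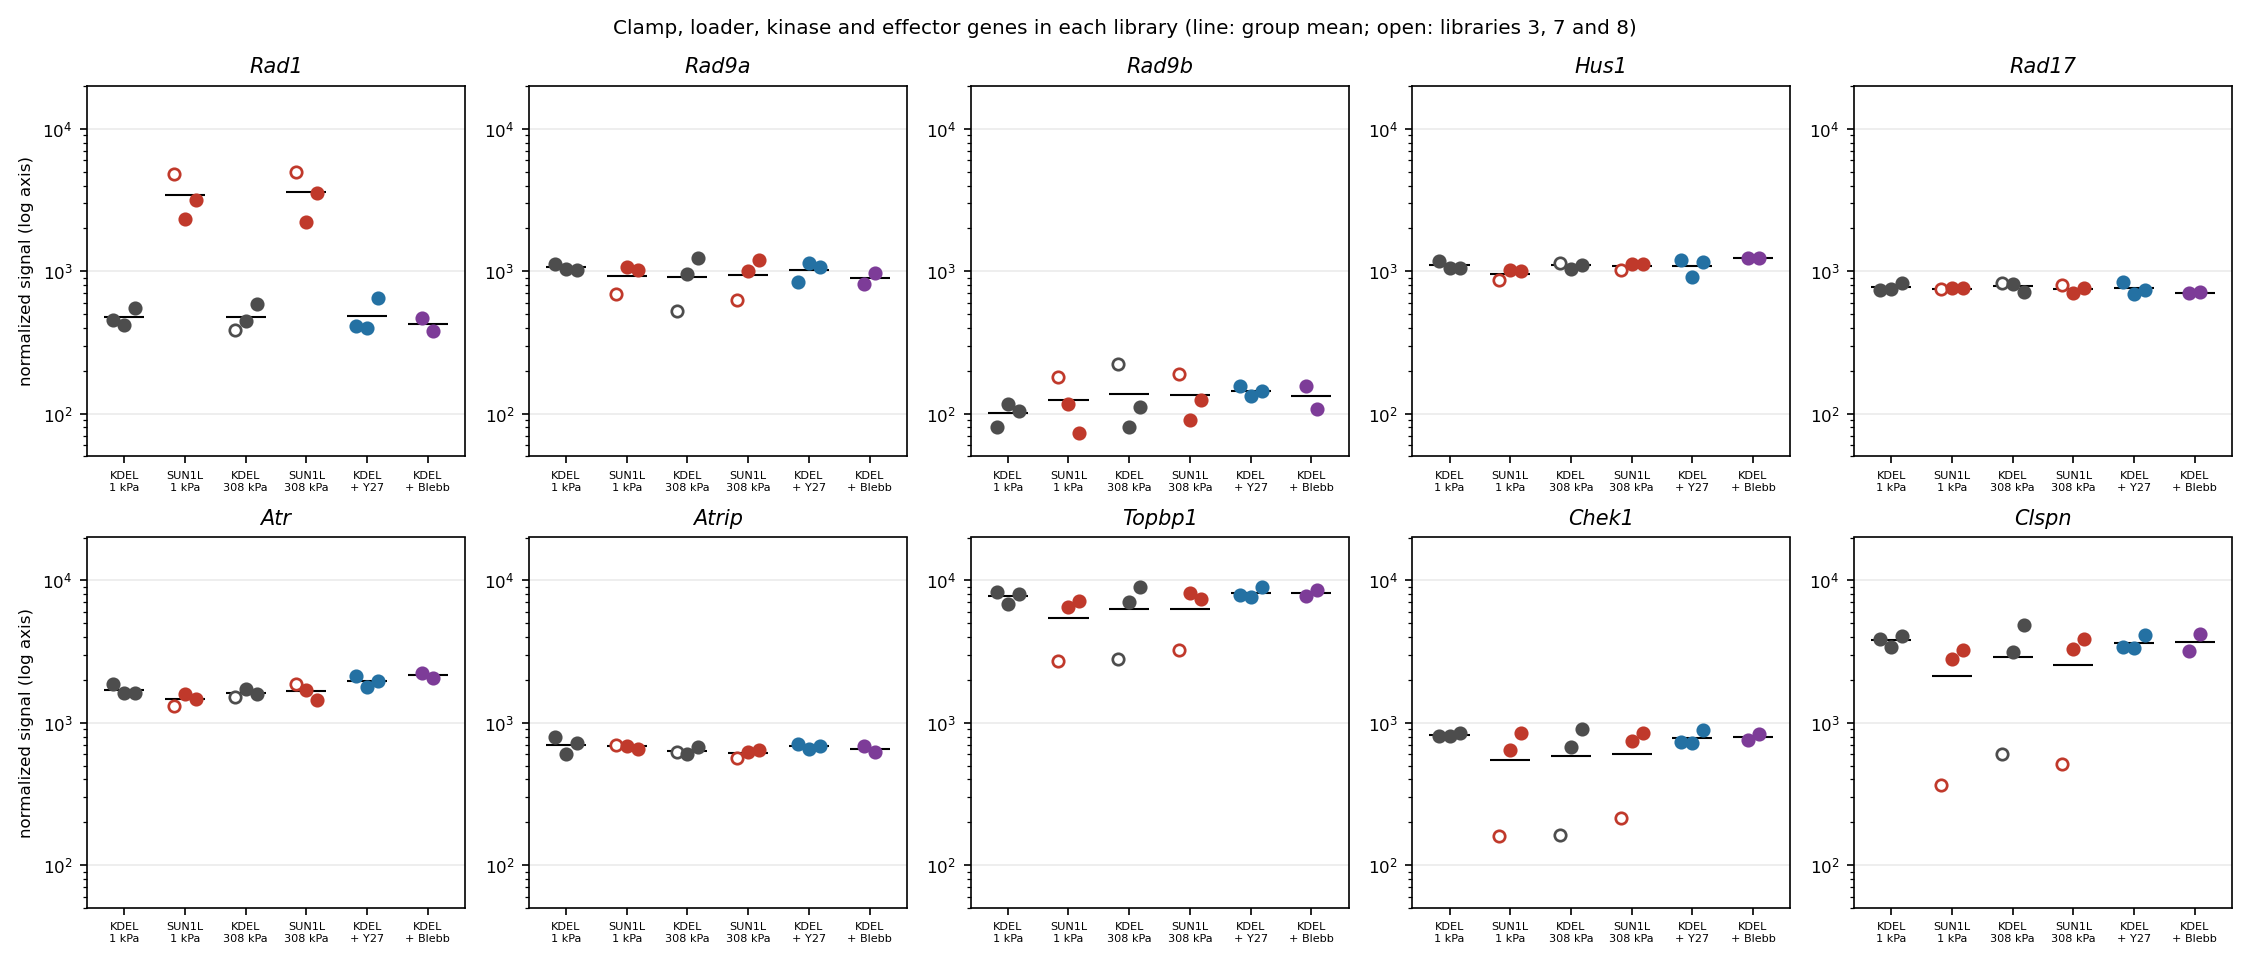
Normalized signal (log axis) of the 10 genes in each of the 17 libraries with a group. Points are libraries, lines are group means, and open points are libraries 3, 7 and 8; the inhibitor groups are on 308 kPa. Rad1 is at 2202 or above in the SUN1L libraries and at 643 or below in all others, whereas for each partner the points of SUN1L and KDEL cells overlap over both rigidities.

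Neither the rigidity of the gel nor the inhibitors gave a detectable difference in Rad1. These comparisons use libraries by which Rad1 was chosen, so they are not independent of that choice. Between 308 and 1 kPa the log2 difference was -0.02 (95% interval -0.73 to 0.69) in KDEL cells and 0.04 (-0.67 to 0.75) in SUN1L cells. The interaction of SUN1L with rigidity was 0.06 (-0.94 to 1.06), and the limma adjusted p of all 3 was 1. With Y27, Rad1 was 415, 402 and 643, a log2 difference of 0.02 (-0.56 to 0.61) from untreated KDEL cells on the same gel. With blebbistatin it was 467 and 380, a difference of -0.15 (-0.80 to 0.50), and both adjusted p-values in limma were 1. The intervals leave room for differences of up to about the fold limit of 2 used for calls in this work.

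The other subunits of the clamp did not share the pattern of Rad1. Hus1, the subunit that completes the ring with Rad1 and Rad9, was 1188, 1051 and 1052 in KDEL and 866, 1016 and 999 in SUN1L libraries on 1 kPa. On 308 kPa it was 1150, 1043 and 1111 in KDEL and 1017, 1128 and 1116 in SUN1L libraries. The soft-gel groups did not overlap, SUN1L being the lower, while the stiff-gel groups did. The log2 difference over both was -0.11 (95% interval -0.28 to 0.07, limma adjusted p = 0.887).

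Rad9a, whose product carries the tail that binds Topbp1, was 1132, 1041 and 1016 in KDEL and 687, 1062 and 1026 in SUN1L libraries on 1 kPa. It was 528, 956 and 1231 in KDEL and 624, 1006 and 1199 in SUN1L libraries on 308 kPa. The 3 low values were those of libraries 3, 7 and 8, in both kinds of cells, and the remaining libraries of both kinds overlapped. Its log2 difference was -0.07 (-0.57 to 0.43, limma adjusted p = 0.976). Rad9b, the paralog, ran from 72 to 221 over these 12 libraries, and there the libraries 3, 7 and 8 were the 3 highest, with 181, 188 and 221. Its difference was 0.12 (-0.57 to 0.81, limma adjusted p = 0.963).

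The order of the clamp transcripts differed between both kinds of cells, which follows from the difference by which Rad1 was chosen and is no further evidence of it. Per kilobase of the longest annotated coding transcript, Rad1 was at 117 ± 19.4 (SD, n = 6) signal in KDEL cells, below Hus1 at 237 ± 13.1 and Rad9a at 481 ± 119, and above Rad9b at 50.3 ± 22.01. In SUN1L cells Rad1 was at 861 ± 294, above Rad9a at 457 ± 111 and Hus1 at 221 ± 20.4. The ratio of Rad1 to Hus1 per kilobase ran from 0.351 to 0.627 over all 11 KDEL libraries with a group, inhibitors included, and from 2.22 to 6.35 over the 6 SUN1L libraries. That of Rad9a to Hus1 was 2.04 ± 0.51 in KDEL and 2.06 ± 0.41 in SUN1L cells (SD, n = 6 each). These levels depend on the transcript taken for each gene, and the change of a ratio between cells does not.

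Rad17, the subunit that directs the loader to the clamp, was 739, 750 and 829 in KDEL and 744, 757 and 761 in SUN1L libraries on the soft gel, and 826, 814 and 719 against 798, 706 and 761 on the stiff gel. The groups overlapped on both gels, and the log2 difference over both was -0.05 (-0.22 to 0.13, limma adjusted p = 0.942).

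Atr, the kinase at the head of the pathway, was 1881, 1609 and 1604 in KDEL and 1315, 1595 and 1473 in SUN1L libraries on 1 kPa, again without overlap and with SUN1L the lower. On 308 kPa it was 1507, 1721 and 1586 against 1879, 1689 and 1454, and the groups overlapped. The log2 difference over both was -0.08 (-0.28 to 0.12, limma adjusted p = 0.915). Within runs of library numbers, which are not a labelled pairing, the SUN1L library was the lower in 5 of 6 pairs, with ratios from 0.699 to 1.25. For other partners it was the higher in 4 of 6 pairs (Rad9a, Rad9b), in 3 (Rad17, Chek1) or in 2 (Hus1, Atrip, Topbp1). The share of all genes with such counts was not computed. Atrip, which tethers ATR to coated single-stranded DNA, ran from 566 to 790 over the 12 libraries, and its difference was -0.05 (-0.25 to 0.16, limma adjusted p = 0.947).

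The promoters of Topbp1, Chek1 and Clspn are shown because these 3 genes were low together in libraries 3, 7 and 8. E2F cores are in capitals, where overlapping matches run together. The letters searched, on both strands, were TTCCCGC, the common form, TTGGCGC with the middle pair changed, TTCGCGC with only its latter letter changed, and TTGCCGC with only its former letter changed. RefSeq windows of 300 bases (GRCm38.p6), which reach from before the RefSeq start of a gene to just after it, were at hand for 9 of the 10 genes, all but Rad9a. Rad9a was also low in libraries 3, 7 and 8, at 528 to 687 against 817 to 1231 in the other 15, and could not be searched. The RefSeq starts of these 3 genes differ from those in the table, and the Chek1 window lies wholly inside the gene as the table gives it. The sequences are written 5′ to 3′ on the strand of the gene, for Topbp1 at chr9:103305077-103305376 (plus), for Chek1 at chr9:36726609-36726908 (minus) and for Clspn at chr4:126556730-126557029 (plus).
Topbp1: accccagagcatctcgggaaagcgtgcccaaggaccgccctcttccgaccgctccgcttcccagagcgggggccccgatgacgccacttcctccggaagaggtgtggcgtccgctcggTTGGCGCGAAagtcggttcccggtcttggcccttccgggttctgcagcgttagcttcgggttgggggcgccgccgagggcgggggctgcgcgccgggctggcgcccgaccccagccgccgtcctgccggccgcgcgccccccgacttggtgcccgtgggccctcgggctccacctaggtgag
Chek1: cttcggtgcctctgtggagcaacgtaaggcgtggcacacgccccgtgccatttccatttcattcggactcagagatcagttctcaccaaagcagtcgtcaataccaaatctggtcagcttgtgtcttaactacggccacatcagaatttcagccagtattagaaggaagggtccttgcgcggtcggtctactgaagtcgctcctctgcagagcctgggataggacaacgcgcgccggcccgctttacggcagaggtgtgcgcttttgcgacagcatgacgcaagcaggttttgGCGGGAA
Clspn: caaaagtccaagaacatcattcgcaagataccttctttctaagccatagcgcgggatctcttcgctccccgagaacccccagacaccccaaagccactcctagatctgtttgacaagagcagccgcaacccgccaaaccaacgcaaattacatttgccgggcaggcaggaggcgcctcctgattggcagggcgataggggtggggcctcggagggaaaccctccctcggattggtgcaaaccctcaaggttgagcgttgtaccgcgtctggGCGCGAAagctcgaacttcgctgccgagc
A core was found in these 3 windows of the 9, with 2 overlapping matches in Topbp1, and in 9.69% of 27025 mouse promoters of the same length. The letters were settled after the sequences had been seen, so the count is a description only, and a match is not evidence of a bound site.

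Topbp1, the activator of ATR, was 8305, 6864 and 8060 in KDEL and 2726, 6505 and 7182 in SUN1L libraries on 1 kPa, and 2825, 7059 and 8965 against 3224, 8176 and 7355 on 308 kPa. Only libraries 3, 7 and 8 lay below 6505. Its log2 difference over both rigidities was -0.29 (-1.06 to 0.49, limma adjusted p = 0.918), and -0.11 (-0.35 to 0.14, limma adjusted p = 0.914) without these 3 libraries.

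Chek1, the gene of the effector kinase Chk1, was 801, 801 and 846 in KDEL and 160, 638 and 846 in SUN1L libraries on 1 kPa. It was 163, 680 and 903 in KDEL and 214, 739 and 842 in SUN1L libraries on 308 kPa. Libraries 3, 7 and 8 were the 3 low ones, at 160 to 214, while the other 15 libraries ran from 638 to 1163. The difference was -0.37 (-1.56 to 0.82, limma adjusted p = 0.930) with them and -0.07 (-0.37 to 0.23, limma adjusted p = 0.966) without them.

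Clspn, whose product claspin presents Chk1 to ATR, was 3902, 3405 and 4044 in KDEL and 368, 2786 and 3253 in SUN1L libraries on 1 kPa, and 605, 3150 and 4874 against 514, 3320 and 3849 on 308 kPa. On the soft gel all 3 SUN1L libraries lay below all 3 KDEL libraries, library 3 by far the most, and on the stiff gel the groups overlapped. The log2 difference over both rigidities was -0.75 (-2.34 to 0.83, limma adjusted p = 0.905), and -0.23 (-0.56 to 0.11, limma adjusted p = 0.822) without the 3 libraries. On 1 kPa alone it was -1.34 (-3.58 to 0.91, limma adjusted p = 0.930), a ratio of 0.396, and without library 3 in that group the ratio was 0.798. Within runs Clspn, like Atr, was lower in the SUN1L library in 5 of 6 pairs. The ratios ran from 0.0943, in the pair with library 3, to 1.05, and the share of all genes with this count was not computed.

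**Figure D2:**
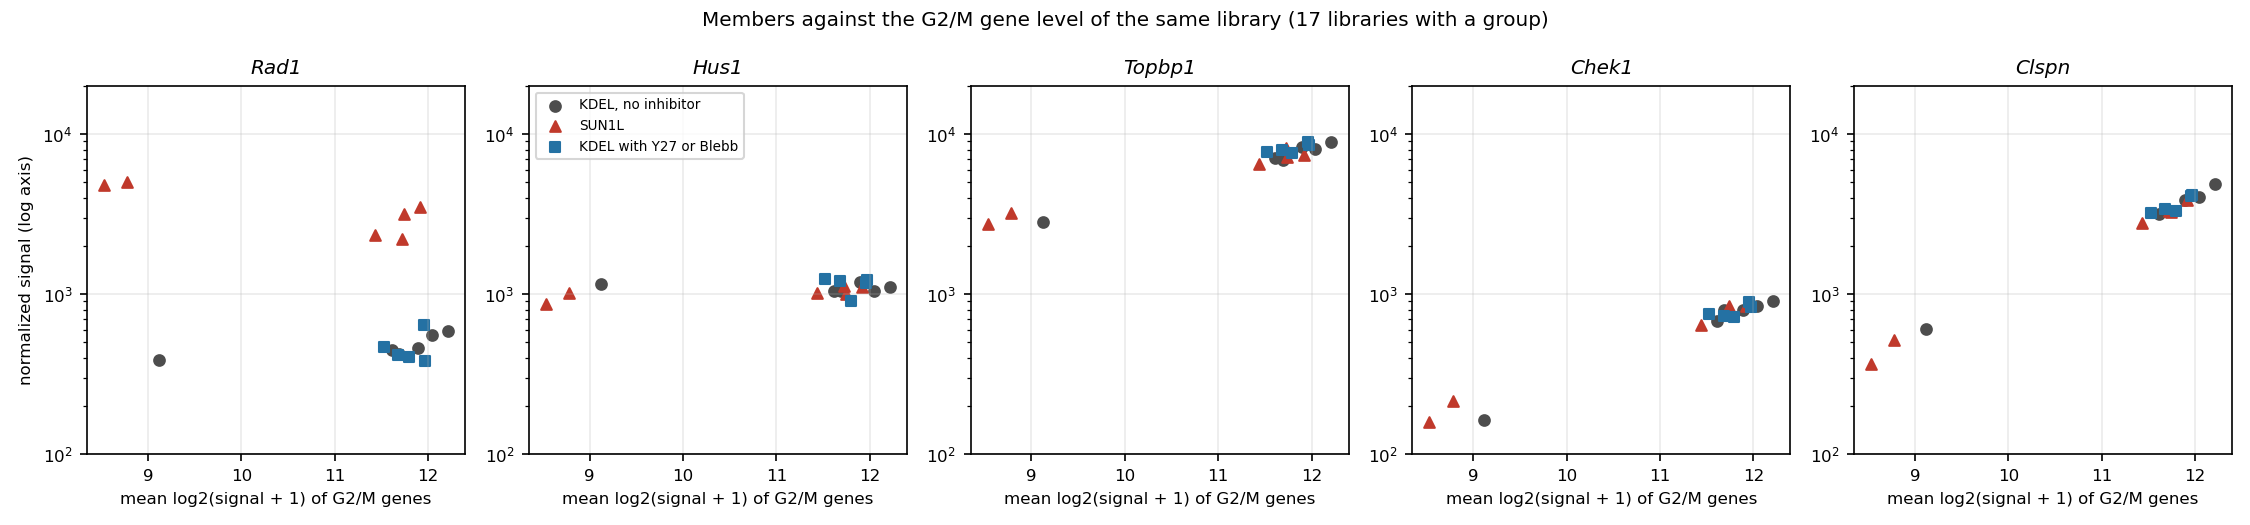
Normalized signal (log axis) of Rad1, Hus1, Topbp1, Chek1 and Clspn against the mean log2(signal + 1) of the G2/M list in the same library, with 1 point for each of the 17 libraries with a group. Clspn, Chek1 and Topbp1 are low in the 3 libraries at 8.53 to 9.12 of the G2/M list. Hus1 is 866 to 1150 there, with its lowest value in library 3. Rad1 was chosen for being high in every SUN1L library, so its split from KDEL libraries here is a description and no test. At the low G2/M level that split sets SUN1L libraries 3 and 7 against the KDEL library 8 alone.

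Counted together, 0 of the 9 partners were called in SUN1L against KDEL cells on 1 kPa, on 308 kPa or over both, where a call needed a limma adjusted p below 0.05 beside a change of 2-fold or more. Over all tested genes the percentage called was 0.0874% on 1 kPa, 0.0624% on 308 kPa and 0.181% over both, so a count of 0 of 9 is near the background. At an unadjusted p under 0.05 the count was also 0 of 9 in each comparison, against 4.54%, 2.53% and 6.8% of all genes. An exact permutation test of each partner took all 924 splits of the 6 SUN1L and 6 KDEL libraries, without keeping the rigidities apart as limma did. Two-sided, this permutation test gave p between 0.130 (Hus1) and 0.838 (Rad9a), where the smallest value it can give is 0.00216. The median log2 difference of the partners over both rigidities was -0.08, with 8 of 9 lower. Over all genes it was -0.02, with 8744 of 16021 lower. On the soft gel 8 of 9 partners were lower with a median of -0.22, and on the stiff gel 4 of 9 were lower with a median of 0.03. Of all 16021 genes 8246 were lower on the soft gel and 9057 on the stiff gel.

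Hus1, Atr and Clspn were the 3 of 9 partners whose soft-gel groups did not overlap, all lower in SUN1L cells, whereas 14.5% of all genes did not overlap there in either direction and 7.86% were lower. On the stiff gel this was so for 0 of 9 partners and for 4.29% of all genes, and over both gels for 0 of 9 and 0.974%. The limma adjusted p of these 3 on 1 kPa was 0.930. Without libraries 3, 7 and 8 their log2 differences on 1 kPa were -0.12 (-0.34 to 0.10) for Hus1, -0.14 (-0.41 to 0.13) for Atr and -0.33 (-0.78 to 0.13) for Clspn. The difference between both gels was not detectable either, since the interaction had an adjusted p of 1 in limma for all 10 genes and 0 of them were called, with 0% of all genes called and 0.905% past an unadjusted p of 0.05, 0 of the 10 among them.

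**Figure D3:**
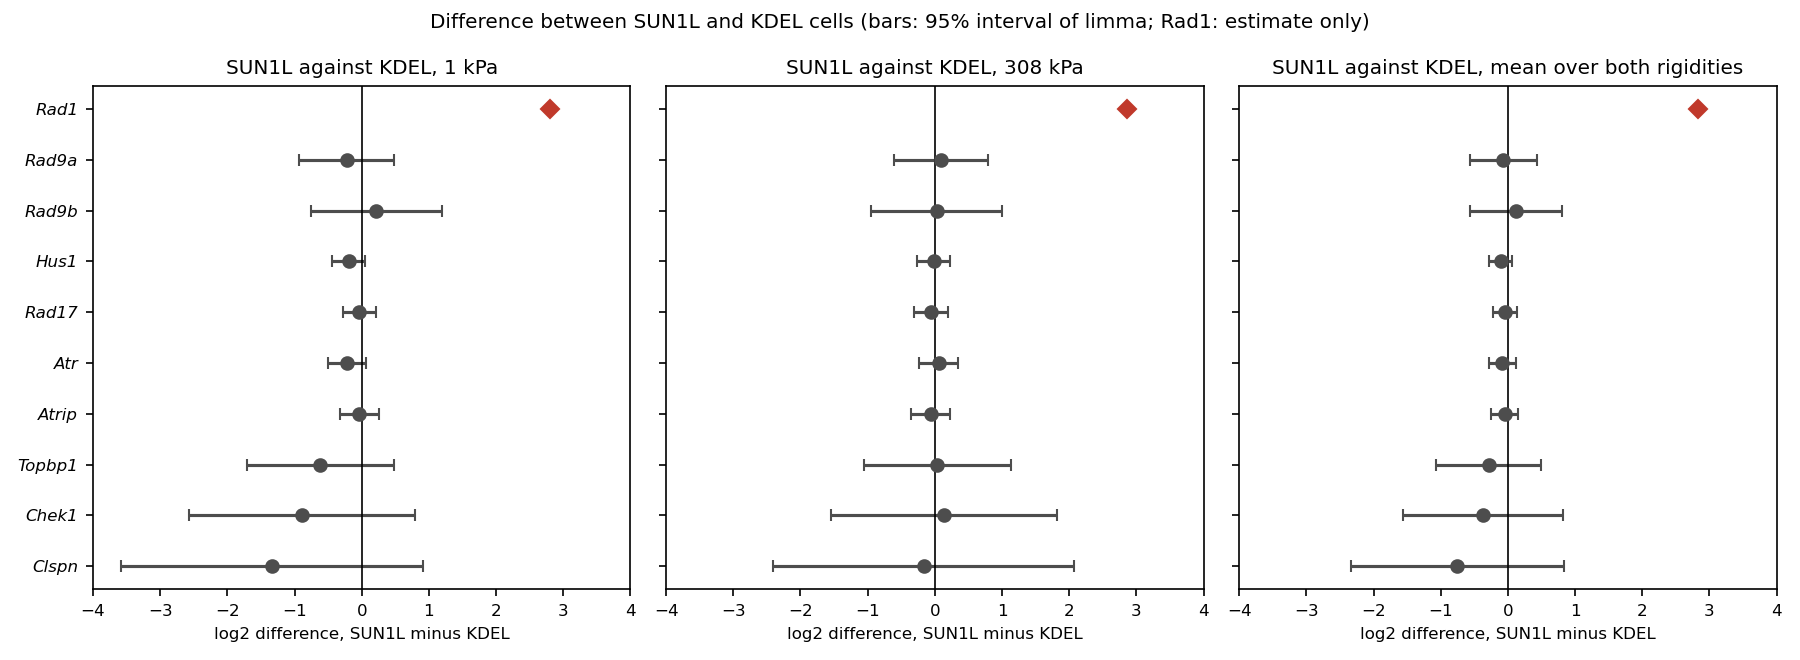
Log2 difference between SUN1L and KDEL cells on 1 kPa, on 308 kPa and over both, for the 10 genes. Circles with bars are the partners with their 95% intervals from limma, and the diamond is Rad1, shown without an interval because it was chosen by this difference. Rad1 lies between 2.80 and 2.86, and all partner intervals include 0.

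How far the partners could have moved unseen differed between them. Over both rigidities the 95% intervals of Hus1, Rad17, Atr and Atrip ended between -0.28 and 0.16, below the 2.83 of Rad1. That value is the difference by which Rad1 was chosen, so the distance from it is a description and no test. Those of Rad9a and Rad9b reached 0.43 and 0.81, and those of Topbp1, Chek1 and Clspn reached from -2.34 to 0.83. Without libraries 3, 4, 7 and 8, which leaves out the first run of library numbers, the intervals of these last 3 narrowed to between -0.61 and 0.27, and Rad1 was at 2.47.

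The rigidity of the gel alone gave 0 calls among the 10 genes in KDEL cells and in SUN1L cells, as it did among all genes (0% called in both, with 1.37% and 1.93% past an unadjusted p of 0.05 and 0 of the 10 genes among them in limma). In KDEL cells the largest differences of the 10 between 308 and 1 kPa were -0.84 (-3.08 to 1.40) for Clspn and -0.81 (-2.49 to 0.87) for Chek1, both resting on library 8. Without libraries 3, 4, 7 and 8 the partners' median moved from -0.14 to 0.03.

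The inhibitor comparisons used the same 3 untreated KDEL libraries on 308 kPa as the rigidity and SUN1L comparisons, so their values are not independent of those. Of the 10 genes 0 were called with Y27 or with blebbistatin, as was 0% of all genes in limma, and 1 of 10 passed an unadjusted p of 0.05 in each, against 5.8% and 3.04% of all genes. That gene was Atr in both. Atr was 1507, 1721 and 1586 in untreated KDEL libraries, 2141, 1782 and 1960 with Y27, and 2244 and 2050 with blebbistatin. All 5 inhibitor libraries lay above the same 3 untreated ones, a joint pattern whose share over all genes was not computed. The log2 difference was 0.29 (0.05 to 0.52, limma adjusted p = 0.803) with Y27 and 0.42 (0.16 to 0.69, limma adjusted p = 1) with blebbistatin, so neither passed the correction. Without library 8 these were 0.24 (-0.01 to 0.50) and 0.38 (0.10 to 0.66). Groups without overlap were met in 8.57% of all genes with Y27, where Atr was the 1 gene of the 10, and in 13% with blebbistatin, where Hus1 and Atr were higher and Rad17 lower.

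Chek1 was 731, 722 and 892 with Y27 and 750 and 831 with blebbistatin, within the range of its untreated libraries other than library 8. Its log2 difference was 0.74 (-0.69 to 2.17) and 0.76 (-0.84 to 2.36) with library 8 and -0.01 (-0.43 to 0.41) and 0.01 (-0.45 to 0.47) without it. Topbp1 and Clspn behaved alike, with 0.53 and 0.78 for Y27 and 0.53 and 0.80 for blebbistatin, and with 0.03, -0.12, 0.03 and -0.10 once library 8 was left out.

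Around Rad1 on chromosome 15, 9 further genes of the table lie within 500000 bases, and 7 of them were tested. Over both rigidities 0 of the 7 were called in limma between SUN1L and KDEL cells, and 0 passed an unadjusted p of 0.05. The shares over all tested genes were 0.181% and 6.8%, so these counts are near the background. Brix1, whose first bases are in the promoter window printed above, was 2054, 2150 and 2169 in KDEL and 2461, 2101 and 2417 in SUN1L libraries on 1 kPa. On 308 kPa it was 2547, 1706 and 2130 in KDEL and 2520, 1904 and 2597 in SUN1L libraries. The groups overlapped on both gels, and the difference was 0.14 (-0.12 to 0.39, limma adjusted p = 0.895). Dnajc21, a ribosome biogenesis chaperone that lies 15501 bases from Rad1, differed by -0.07 (-0.45 to 0.32, limma adjusted p = 0.963). Ttc23l, which ends 1038 bases downstream of Rad1 on the opposite strand, was near the lowest value in every library, at 6.68 or less. The remaining differences were 0.16 for Rai14, -0.34 for Amacr, -0.46 for Prlr and -0.77 for C1qtnf3. Prlr was near the lowest value in every library, at 5.88 or less, and the level of C1qtnf3 was at most 47.2. Agxt2 and Gm21973 were at or near the lowest value and not tested.

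**Figure D4:**
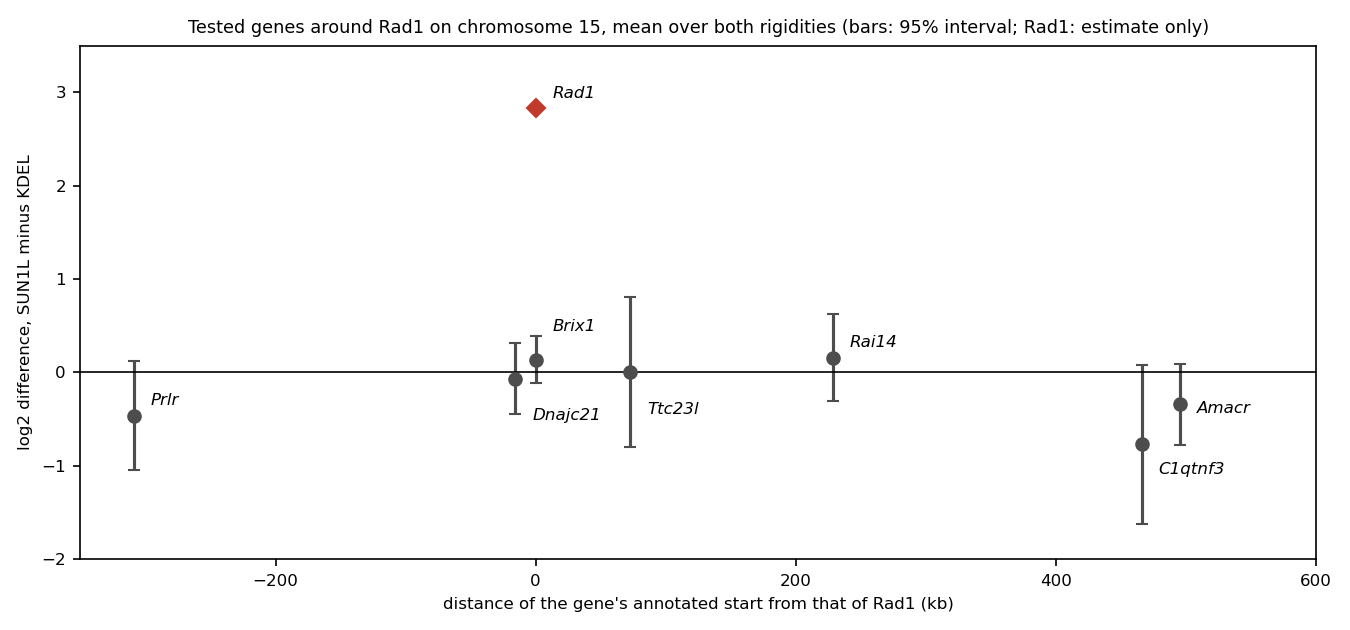
Log2 difference between SUN1L and KDEL cells over both rigidities for Rad1 and the 7 tested genes within 500000 bases, against the distance of their annotated starts from that of Rad1 in kb. Bars are 95% intervals from limma; Rad1 is shown without one. Rad1 stands at 2.83, and the intervals of all 7 neighbours include 0.

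Over the 18 libraries, the 5 tested genes whose log2(signal + 1) had the highest Pearson correlation with Rad1 were Sun1 (r = 0.970), Zfp600 (0.912), Akr1c13 (0.909), Gm13242 (0.908) and Htr5b (0.905). Of the 18 points 17 share the split into SUN1L and KDEL libraries that chose Rad1, and the other is library 34, which was put in no group, so these values largely describe that split and carry no test. Akr1c13, an aldo-keto reductase, was 216 to 350 in the 6 SUN1L libraries and 110 or less in all others, and Zfp600, a zinc finger gene, was 207 to 375 and 177 or less. Both belong to families of near-identical copies between which the counting may have split reads, so these levels are uncertain. Htr5b was at 9.81 or less in every library. Among the partners r ran from -0.52 for Atr to 0.05 for Rad9b, and their ranks among the 16021 tested genes from 6822 to 14552.

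The other genes of the damage response and of the cell cycle were described in lists, over both rigidities and in the order of the pathway. Over all 16021 tested genes 8744 were lower and 7270 higher in SUN1L cells, and 0.181% were called. A count of 0 calls in a list is therefore near the background. Of 11 other genes of clamp loading and sliding clamps 10 were lower and 1 higher in SUN1L cells, with a median log2 difference of -0.29 and 0 calls in limma. Pcna, the replication clamp itself, differed by -0.40 (-1.32 to 0.53), and Dscc1, a subunit of an alternative loader, by -0.47 (-1.85 to 0.91). The 10 genes of the fork and of single-stranded DNA were all lower with a median of -0.38 and 0 calls, among them Wdhd1 at -0.63 and Mcm10 at -0.50, which both act in replication. The 7 genes downstream of Chk1 were all lower with a median of -0.28 and 0 calls, among them Cdc25c at -0.81 and Cdk1 at -0.65, the phosphatase and the kinase of mitotic entry.

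The parallel ATM branch, 10 genes, had a median of -0.19 with 8 lower and 0 calls, with the ubiquitin ligases Rnf8 at 0.29 and Rnf168 at -0.29. Of the 19 tested targets of p53, 18 were higher and 1 lower with a median of 0.23 and 0 calls, and 2 of the 19 passed an unadjusted p of 0.05, against 6.8% of all genes. These were Cdkn1a and Phlda3. Cdkn1a, which encodes the inhibitor p21, differed by 0.58 (0.08 to 1.08, limma adjusted p = 0.659), Phlda3, a brake on Akt signalling, by 0.20 (0.01 to 0.39, limma adjusted p = 0.703), and Bbc3, the gene of the apoptosis factor Puma, by 0.63 (-0.11 to 1.38, limma adjusted p = 0.804). All 22 S phase genes and all 20 G2/M genes were lower, with medians of -0.47 and -0.75 and 0 calls, among them Rrm2 at -0.83, Gins1 at -0.67, Mki67 at -0.92 and Kif11 at -0.84. Without libraries 3, 7 and 8, of which 2 are SUN1L and 1 is KDEL, these medians were -0.08 for the S phase list, with 18 of 22 lower, and -0.20 for the G2/M list, with 20 of 20 lower. They were -0.07 for clamp loading, -0.11 for the fork, -0.09 downstream of Chk1, -0.12 for the ATM branch and 0.13 for the p53 targets, of which 16 of 19 were higher. Over all tested genes the median was -0.02 with or without these libraries, and 0 genes of these lists were called. Without them 4 of 19 p53 targets, 3 of 20 G2/M and 3 of 22 S phase genes passed an unadjusted p of 0.05 in limma. So did 1 of 10 fork genes, 1 of 10 of the ATM branch, 0 of 11 of clamp loading and 0 of 7 downstream of Chk1. Of all tested genes 1224 of 16021 did. In all 12 libraries 7 of 9 tested fibroblast markers were lower and 2 higher, with Col1a1 at -0.42 (-1.02 to 0.19) and S100a4 at -0.38 (-1.22 to 0.47). Of 7 tested markers of other cell types 4 were lower and 3 higher. Among these Krt14 differed by 0.80 (-0.41 to 2.02) and Cdh1 by -0.16 (-0.86 to 0.55).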

How the data were processed

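Polyadenylated RNA of 18 libraries was sequenced in pairs by the authors, aligned to the mouse genome with TopHat 2.0, filtered by quality, mates and duplicates, and quantified in AvadisNGS with scaling by the trimmed mean of M-values. The deposited signal values are linear, at least 1, and not whole reads, and count models were not applied. The methods name mm9, whereas the positions in the table match GRCm38 and are printed as such.

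From these, log2(signal + 1) entered limma 3.58.1 (R 4.3.3) with a variance trend and 1 mean per group. Two-sided tests covered 16021 of 22019 genes, those that exceeded the lowest value in 3 or more libraries, in 12 libraries for SUN1L and rigidity and in 8 for the inhibitors. A call needed a p below 0.05 after Benjamini-Hochberg adjustment beside a change of 2-fold or more. The labels of library 34, which name an empty vector, contradict each other on its inhibitor, and it entered no group. Replicates are biological per the methods, and the labels do not number them. The members and lists were chosen with earlier results of these data known. Outside the members, the genes named were Sun1, the tested genes within 500000 bases of Rad1, the 5 most like it, and from each list the called genes or otherwise the 2 with the largest difference and a mean above 100, with Agxt2, Gm21973 and Phlda3 named after their values were seen. Alternatives were other filters, pseudocounts of 8 and 0.1, quantile normalization, all 17 grouped libraries in 1 fit, no trend, no fold limit, a block on runs of library numbers, array weights, a G2/M covariate, and libraries left out. Leaving out libraries 3, 4, 7 and 8 was added after the data were seen.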

Additional observations from a re-analysis of the deposited data

How the results depend on the processing

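Under the alternatives, and when any single library was dropped, the count of partners called stayed at 0 in every SUN1L comparison, and of the 10 genes 0 were called in the other comparisons. Rad1 over both rigidities kept its direction, at 2.69 to 2.98 with 1 library left out. That direction followed from the choice of Rad1 as high in every SUN1L library, so keeping it is no test. With quantile normalization Rad17 (0.0054) and Atrip (0.0056) turned sign. With the G2/M level as a covariate Rad9a (0.14), Rad9b (-0.12), Topbp1 (0.0503) and Chek1 (0.15) did, and without libraries 3, 4, 7 and 8 so did Rad9a (0.0197), Rad9b (-0.0487) and Atrip (0.0093). With 1 library left out Rad9a ran from -0.24 to 0.0689 and Rad9b from -0.0406 to 0.32. None of these values was called, and the covariate's cause was not tested.

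The partners' median moved by more than the spread between libraries as follows. For blebbistatin it was 0.17 and became 0.31 with array weights and 0.0346 without library 8, and 0.0346 to 0.33 with 1 library left out. For Y27 it was 0.24 and became 0.0127 without library 8 and 0.0802 with the covariate, and 0.0127 to 0.32 with 1 library left out. Without libraries 3, 4, 7 and 8 the interaction's median was 0.0852 in place of 0.27, and that of rigidity in KDEL cells 0.0335 in place of -0.14. The median of rigidity in SUN1L cells, 0.18, ran from -0.14 to 0.23 with 1 library left out. Leaving out libraries 3, 7 or 8 leaves fewer samples.

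The labels number no replicates, so the design gives no pairing. When the 3 runs of library numbers entered the fit as a block, Clspn on 1 kPa, -1.34, had an unadjusted p of 0.0385 and a limma adjusted p of 0.343. Without libraries 3, 7 and 8 and without the block it was -0.33, and in the fit with the block 0 partners were called. With 3 libraries a group, wide intervals limit Topbp1, Chek1 and Clspn, and at 1.70 to 2.49 signal per read pair the depth limits Ttc23l, Prlr and Htr5b.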

Other observations

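Library 34 entered no group. Its labels name an empty vector in place of SS-GFP-KDEL and both Y27 and blebbistatin, and the number heading its column is not its own. In it Rad1 was 581, Rad9a 863, Rad9b 142, Hus1 1389, Rad17 760, Atr 1869, Atrip 714, Topbp1 10435, Chek1 1163 and Clspn 4232. Its values of Hus1, Topbp1 and Chek1 were the highest of the 18 libraries, and its Rad1 value was below those of all 6 SUN1L libraries.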
